A study of Homo sapiens with 2 samples.

Results

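10 genes that hypoxia-inducible factors are known to activate, VEGFA, KDM3A, ERO1A, CA12, BNIP3, LOXL2, INSIG2, ANKRD37, TMEM45A and ANGPTL4, were followed across the arrays of the series. They were found by gene symbol in the probe table of the platform, which gave 1 transcript cluster (the array's unit of measurement for a gene) for each of the 10 genes, out of 14884 named genes and 53617 clusters in all. The genes were chosen with their differences on these arrays known, so their values are a description and carry no test. The cells were MDA-MB-231, an established human breast cancer line. One group received compound 1 and the other a miR-544 antagomir (a chemically modified antisense oligonucleotide against that microRNA), in each case 24 hours before 5 days in oxygen below 1%. Both groups thus share the cell line and the hypoxia, and the labels give no further agent, dose or genotype. By the series design, 3 samples were pooled once hypoxia ended, and each treatment is represented by 1 array. Whether these were 3 cultures for each treatment is not clear from the design. The comparison asks how far the treatments, both directed by the study at miR-544, differ in hypoxic cells. It holds no normoxic or untreated reference, so hypoxic induction itself was not measured here.

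Hypoxia-inducible factors (HIFs) are transcription factors made of an oxygen-regulated alpha subunit and the stable partner ARNT. When oxygen is plentiful, prolyl hydroxylases of the EGLN family mark the alpha subunit for destruction. When oxygen is scarce the subunit persists, and the complex binds hypoxia response elements, short DNA sites with the core ACGTG or GCGTG. Targets of HIFs serve new vessel growth, acid and redox balance, matrix remodelling, removal of mitochondria and chromatin change, and they are active in many breast tumours.

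The sequence of miR-544a from RefSeq (GRCh38.p14) is shown first, because both treatments are directed at this microRNA. In the mature form the capitals mark the seed (bases 2 to 8), and in the hairpin, at chr14:101048658-101048748 on the plus strand, they mark the mature form.
hsa-miR-544a: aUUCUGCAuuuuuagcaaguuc
MIR544A hairpin: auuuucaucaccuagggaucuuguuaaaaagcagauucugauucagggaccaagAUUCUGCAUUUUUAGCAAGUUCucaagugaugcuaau
The MIR544A cluster had a deposited log2 level of 4.83 on the compound 1 array, against 4.78 on the antagomir array, both under the entry level of 5.60 defined below.

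RefSeq promoter windows, which run from 250 bases before to 50 bases after a transcription start, were matched for 8 of the 10 genes by symbol. VEGFA and LOXL2 are named only. Each window was searched on both strands for ACGTG and GCGTG, and overlapping matches were counted as 1 site, since ACGTG on one strand overlaps its copy on the other in CACGTG. The windows printed here show the range met among the 8 genes, and the capitals mark the matched cores. BNIP3 has the most cores, ANKRD37 has ACGTG alone, KDM3A has a single GCGTG beside its start, TMEM45A has no match, and ANGPTL4 is the gene whose level ran opposite to the others.
BNIP3 promoter, chr10:131981874-131982173, minus strand: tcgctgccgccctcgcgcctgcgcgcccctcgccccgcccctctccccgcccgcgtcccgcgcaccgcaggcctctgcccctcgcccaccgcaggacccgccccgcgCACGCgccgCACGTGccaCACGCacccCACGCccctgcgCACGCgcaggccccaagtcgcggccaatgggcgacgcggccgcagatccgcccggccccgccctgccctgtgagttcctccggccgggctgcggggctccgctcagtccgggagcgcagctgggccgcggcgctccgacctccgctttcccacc
ANKRD37 promoter, chr4:185396591-185396890, plus strand: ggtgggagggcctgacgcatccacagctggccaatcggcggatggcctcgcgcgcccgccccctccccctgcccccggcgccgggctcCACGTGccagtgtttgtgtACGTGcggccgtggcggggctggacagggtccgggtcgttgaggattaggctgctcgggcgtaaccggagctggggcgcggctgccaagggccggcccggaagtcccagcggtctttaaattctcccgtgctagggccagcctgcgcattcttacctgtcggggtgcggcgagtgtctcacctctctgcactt
KDM3A promoter, chr2:86441121-86441420, plus strand: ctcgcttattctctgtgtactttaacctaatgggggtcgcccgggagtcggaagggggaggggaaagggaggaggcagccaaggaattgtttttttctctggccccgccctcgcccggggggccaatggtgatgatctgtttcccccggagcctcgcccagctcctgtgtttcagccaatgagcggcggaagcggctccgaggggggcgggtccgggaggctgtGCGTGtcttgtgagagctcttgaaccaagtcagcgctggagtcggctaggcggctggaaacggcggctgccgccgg
TMEM45A promoter, chr3:100492369-100492668, plus strand: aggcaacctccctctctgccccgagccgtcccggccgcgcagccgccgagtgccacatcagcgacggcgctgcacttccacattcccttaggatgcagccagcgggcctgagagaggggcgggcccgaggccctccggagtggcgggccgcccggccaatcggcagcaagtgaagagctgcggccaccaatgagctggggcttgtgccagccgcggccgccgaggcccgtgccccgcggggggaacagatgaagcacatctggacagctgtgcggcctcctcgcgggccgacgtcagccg
ANGPTL4 promoter, chr19:8363905-8364204, plus strand: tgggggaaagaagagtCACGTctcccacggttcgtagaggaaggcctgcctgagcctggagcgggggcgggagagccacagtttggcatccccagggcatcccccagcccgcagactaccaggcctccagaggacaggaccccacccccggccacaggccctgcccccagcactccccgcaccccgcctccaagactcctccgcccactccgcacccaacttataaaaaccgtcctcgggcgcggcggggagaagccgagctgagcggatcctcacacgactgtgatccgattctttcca
The BNIP3 window held 5 sites, 4 of them GCGTG and 1 a CACGTG, starting at positions -143 to -104 relative to the start. ANKRD37 held 2 sites with ACGTG, starting at positions -162 and -143. The single KDM3A site began at position -26, and that of ANGPTL4 at -234. Of the windows not printed, ERO1A held 3 sites, CA12 held 2 and INSIG2 held 2. RefSeq lists a second window for INSIG2 and for KDM3A, each overlapping the first: that of INSIG2 held the same 2 sites and 1 more, and that of KDM3A the same single site.

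**Figure D1:**
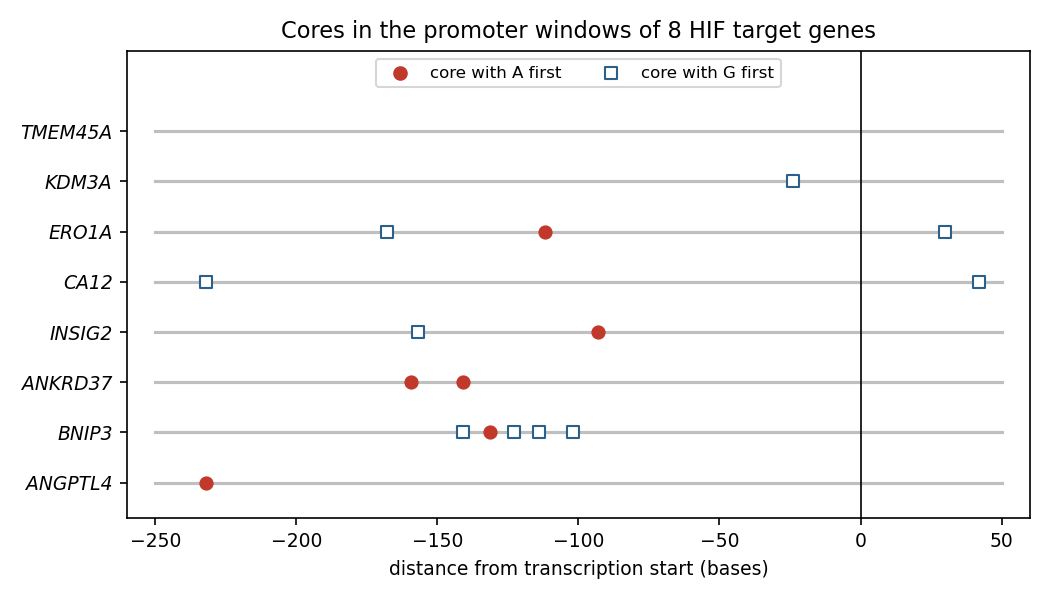
Position of each matched core in the first listed promoter window of 8 genes, in bases from the transcription start, ordered down the page by their difference between the arrays. Filled circles are cores with A first and open squares cores with G first; BNIP3 carries 5 sites, TMEM45A 0.

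In the first listed window, at least 1 core was present in 7 of the 8 genes, against 61.4% of the 8356 background genes (those of sufficient level, defined below) with a window and 48.4% of all 35116 windows. At least 1 ACGTG was present in 5 of the 8, against 25.8% of these background genes and 21.4% of all windows. Median GC content was 68.7% over the 10 windows of these genes, second windows included, against 65% for the background genes. Its part in these shares was not tested. These are matches of letters, and binding was not measured.

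The whole table gave the following frame. Deposited log2 levels ran from 0.37 to 14.20 on the compound 1 array, against 0.61 to 14.19 on the antagomir array. A gene entered the background when its higher level reached the 50th percentile of mean levels of all clusters, 5.60, which left 10887 genes, and all 10 members entered. Of the 8 markers listed for MDA-MB-231, VIM, CD44, AXL, MSN and EGFR were at 9.04 to 12.77 on the compound 1 array, against 9.08 to 12.78 on the antagomir array, while S100A4 was under the entry level on both, at 5.21 (compound 1) and 5.17 (antagomir), and CAV1 and TGFBI were not analysed here. The luminal markers ESR1 (compound 1 5.21, antagomir 5.31) and PGR (compound 1 4.77, antagomir 4.77) were under it on both arrays. The 6 others, KRT8, EPCAM, GATA3, ERBB3, FOXA1 and TFF1, had levels of 5.66 to 7.81 on the compound 1 array, against 5.41 to 7.80 on the antagomir array. On the compound 1 array the leukocyte markers CD68 and CD14 stood at 11.59 and 5.48, and the endothelial markers VWF and PECAM1 at 5.81 and 5.57. On the antagomir array CD68 and CD14 stood at 11.60 and 5.18, and VWF and PECAM1 at 5.74 and 5.32. Whether other cells contribute to any result was not tested. With 1 array per treatment no difference has a replicate error, and none is given a p-value. In pooled RNA, fewer cells of one kind and less RNA per cell cannot be told apart.

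The HIF targets were lower on the compound 1 array than on the antagomir array, except ANGPTL4, which was higher. In count, 9 of 10 were lower, where 57.2% of background genes were lower, and 1 was higher, where 41.7% were higher. The differences, compound 1 minus antagomir on the log2 scale, ran from -0.47 for VEGFA to 0.18 for ANGPTL4, with a median of -0.28 beside a median of -0.035 over the background genes. A small fold, by which the higher level exceeds the lower by more than 25% (0.32 on the log2 scale), was passed by 4 lower members (VEGFA, TMEM45A, KDM3A and ERO1A) and by 0 higher ones, where the background shares were 5.27% lower and 3.56% higher. Past 1.5-fold there were 0 members, where 0.551% of background genes were lower and 0.312% higher. The direction of each of the 10 genes was the same after centring, quantile normalization and cyclic loess, but the number lower past the 25% fold was 5, 3 and 3 under these, with 7.17%, 4.20% and 4.80% of background genes. CA12 joined after centring, and ERO1A dropped out after the others.

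**Figure D2:**
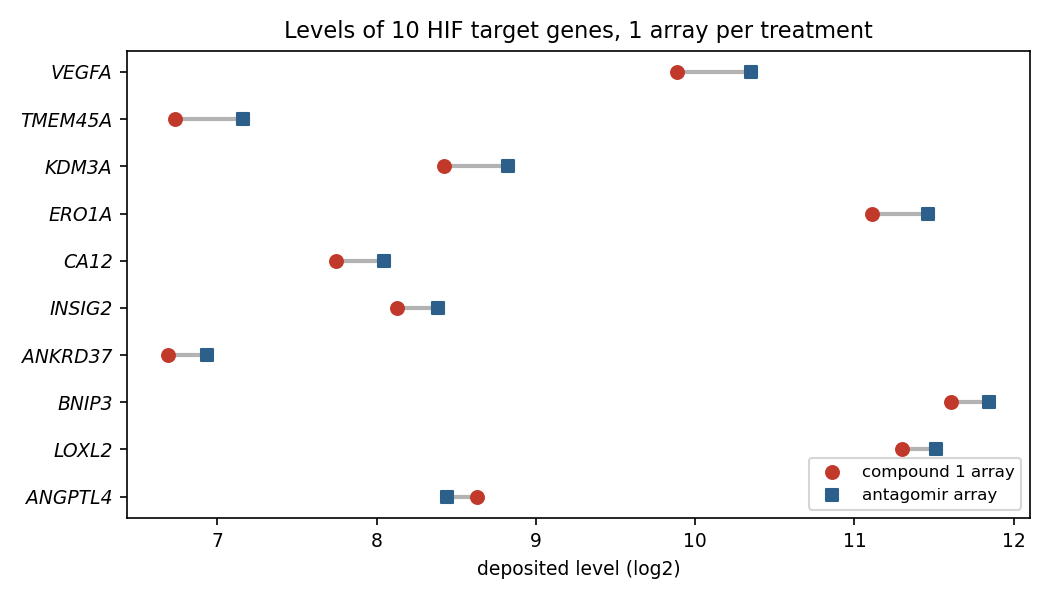
Deposited log2 level of each gene on the compound 1 array (circles) and the antagomir array (squares), 1 array each, ordered by the difference. The circle lies left of the square for 9 genes, most widely for VEGFA (9.89 on compound 1, 10.35 on antagomir), and right of it for ANGPTL4 (8.63 on compound 1, 8.44 on antagomir).

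Because the spread of differences depended on level, each gene was set against the 500 background genes nearest to it in mean level. Their median difference and robust SD (scaled from the median absolute deviation) describe how genes at that level differ between these arrays, which is no replicate error. Median differences ran from 0.074 in the lowest decile of background levels to -0.079 in the highest.

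Among secreted factors, VEGFA, the growth factor that drives endothelial cells to form vessels, was at 9.89 on the compound 1 array, against 10.35 on the antagomir array. The difference of -0.47 is a 1.38-fold lower level, and 5 of its 500 genes of like level had a lower difference. Those 500 genes had a median of -0.086 and a robust SD of 0.12, so VEGFA lay at -3.11 robust SDs from their median, the farthest of the 10 genes. ANGPTL4, a secreted inhibitor of lipoprotein lipase that also responds to PPAR nuclear receptors, was at 8.63 on the compound 1 array, against 8.44 on the antagomir array. This was 1.14-fold higher, and 467 of 500 genes of like level had a lower difference. It lay 1.91 robust SDs above their median of -0.074.

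In the endoplasmic reticulum, ERO1A, the oxidase that keeps protein disulfide isomerase able to form disulfide bonds, was at 11.11 on the compound 1 array, against 11.46 on the antagomir array. It was 1.28-fold lower, and 6 of 500 genes had a lower difference. ERO1A, BNIP3 and LOXL2 share the same comparison genes, the named genes of highest level apart from the gene itself, with a median of -0.071 and a robust SD of 0.10. INSIG2, a membrane protein that holds the sterol sensor SCAP and its SREBP cargo in the endoplasmic reticulum, was at 8.13 and 8.39 on the compound 1 and antagomir arrays, 1.20-fold lower. Of its 500 genes of like level, 44 had a lower difference.

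At the cell surface and outside the cell, CA12, a carbonic anhydrase with its active site facing outward that takes part in acid balance, was at 7.74 on the compound 1 array, against 8.05 on the antagomir array. It was 1.23-fold lower, with 39 of 500 genes below it. LOXL2, a secreted amine oxidase that crosslinks collagen, was at 11.30 on the compound 1 array, against 11.51 on the antagomir array. Its difference of -0.21 was the smallest in size among the 9 lower genes, and 49 of 500 genes had a lower one.

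BNIP3, an outer mitochondrial membrane protein that marks mitochondria for autophagy, was at 11.61 on the compound 1 array, against 11.84 on the antagomir array. It was 1.18-fold lower, with 36 of 500 genes below it. KDM3A, a histone demethylase that removes repressive methyl marks from histone H3, was at 8.42 on the compound 1 array, against 8.82 on the antagomir array. It was 1.32-fold lower, with 7 of 500 genes below it and at -2.42 robust SDs from their median of -0.074.

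Of the genes with less studied products, TMEM45A, which encodes a membrane-spanning protein, was at 6.73 on the compound 1 array, against 7.16 on the antagomir array, 1.35-fold lower, and 14 of 500 genes had a lower difference. ANKRD37, which encodes a small ankyrin repeat protein, was at 6.69 and 6.93 on the compound 1 and antagomir arrays, 1.18-fold lower. With 65 of 500 genes below it, ANKRD37 was the nearest to its comparison genes of the 9 lower members in count. Genes at the level of TMEM45A and ANKRD37 spread most widely, with robust SDs of 0.18 and 0.19, against 0.10 to 0.15 for the other 8 members.

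**Figure D3:**
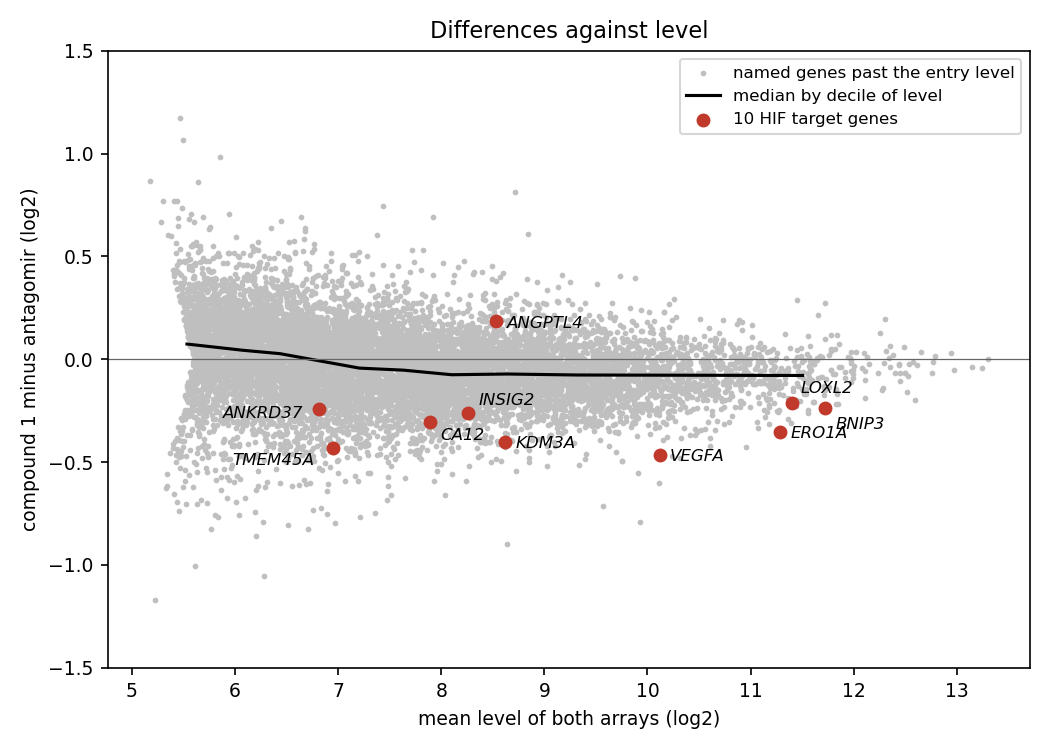
Difference between the arrays (compound 1 minus antagomir, log2) against mean level for the background genes (grey, without 1 gene that lies beyond the axis), their median by decile of level (line) and the 10 HIF targets (red). The named points below the line are spread from a mean level of 6.81 (ANKRD37) to 11.72 (BNIP3), and ANGPTL4 lies above it at 8.54.

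In count, 8 of the 10 genes had no more than 10% of their comparison genes below them, and the median over the 10 was 7.50%. ANKRD37 and ANGPTL4 were the others. The order of the differences was not an order of robust SDs. TMEM45A came after VEGFA in difference (-0.43), but ERO1A (-0.35) lay farther from its comparison genes, at -2.81 robust SDs against -2.19 for TMEM45A. Scaling moved the comparison genes along with the members: after quantile normalization and cyclic loess VEGFA had 1.00% of them below it in each case, INSIG2 8.60% and 8.40%, BNIP3 5.40% and 7.20% and LOXL2 10.2% and 9.60%. Adjacent genes in the order of differences lay no more than 0.050 apart on the log2 scale apart from ANGPTL4, a step under the smallest robust SD of their comparison genes, 0.10.

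**Figure D4:**
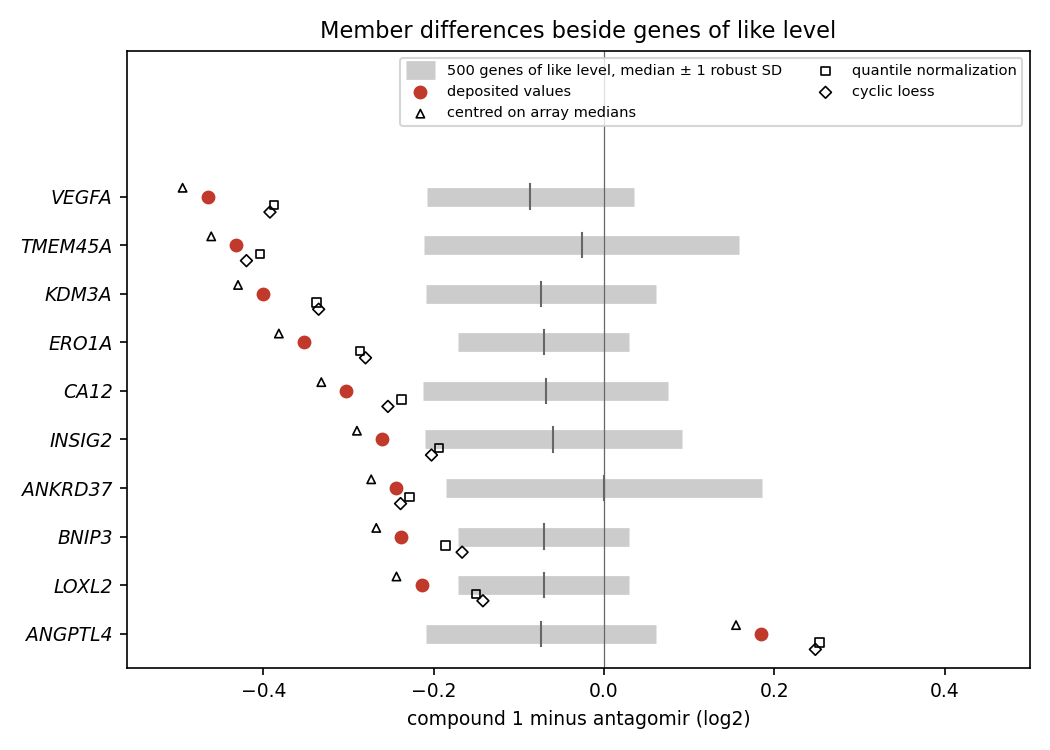
Difference of each of the 10 genes (compound 1 minus antagomir, log2) as deposited (filled circle) and after 3 scalings (open symbols), beside the median and 1 robust SD of the 500 genes of like level as deposited (grey bar). VEGFA, TMEM45A, KDM3A, ERO1A, CA12, ANKRD37 and ANGPTL4 lie clear of the bar under each scaling. INSIG2, BNIP3 and LOXL2 reach it after quantile normalization or cyclic loess. The bar stays at deposited values while scaling also moves the comparison genes, so reaching it is no change of position among them.

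Other HIF targets were looked up from a list that leaves out the 10 genes. Of 62 listed, 32 had an entering cluster, 1 was under the entry level and 29 were not analysed here. On the compound 1 array 24 were lower and 8 higher, 5 were lower past the 25% fold and 0 higher, and the median difference was -0.11. Of all background genes 57.2% were lower, and past the 25% fold 5.27% were lower and 3.56% higher. After quantile normalization the split was 22 lower and 10 higher with a median of -0.043, where 48.9% of background genes were lower, and after cyclic loess it was 21 and 11 with -0.037, where 51.1% were lower. Under both of these 5 were lower past the 25% fold, where 4.20% and 4.80% of background genes were. Under both, 1, CXCR4, was higher past it at 0.34, where 426 of 10877 and 361 of 10873 background genes were. DDIT4, an inhibitor of mTOR complex 1, was lowest, at 9.53 on the compound 1 array, against 10.32 on the antagomir array. SPAG4, a nuclear envelope protein gene, was at 7.36 and 7.94 on the compound 1 and antagomir arrays, a difference of -0.58. MIR210HG, the host gene of the hypoxia-regulated microRNA miR-210, was at 8.29 on the compound 1 array, against 8.77 on the antagomir array, a difference of -0.48. The others past the 25% fold, named after their values were seen, were ANKZF1 (-0.44) and the glycogen synthase gene GYS1 (-0.40). At the other end EPO, the gene of the red cell hormone erythropoietin, was at 6.65 on the compound 1 array, against 6.35 on the antagomir array. The chemokine receptor gene CXCR4 was at 10.35 on the compound 1 array, against 10.08 on the antagomir array. Of genes of like level, 99.8% lay below its difference of 0.27. STC2, a secreted glycoprotein gene, had a difference of 0.21, with only 76.2% of genes of like level below it. Thus ANGPTL4 was not alone among HIF targets in being higher on the compound 1 array.

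Regulators of the HIF complex were looked up in the same way. Of 18 listed, 10 entered, and the other 8, VHL and EGLN2 among them, were not analysed here. HIF1A was not on this list. Of the 10, 7 were lower, 3 higher and 0 past the 25% fold, with a median of -0.046. Of background genes 57.2% were lower, and past that fold 5.27% were lower and 3.56% higher. After quantile normalization and cyclic loess 6 were lower and 4 higher, where 48.9% and 51.1% of background genes were lower. The oxygen sensor EGLN1, itself a HIF target, was at -0.16, the ubiquitin ligase scaffold CUL2 at -0.11 and the ubiquitin ligase SIAH2 at -0.078. EPAS1, which encodes the alpha subunit of HIF-2, was higher, at 9.27 on the compound 1 array, against 8.99 on the antagomir array. The coactivators CREBBP and EP300 were higher by 0.17 and 0.062. After quantile normalization and cyclic loess 1 regulator, EPAS1, passed the 25% fold, at 0.35 under both. Of background genes, 426 of 10877 and 361 of 10873 were higher past that fold under these.

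Relatives of the 10 genes were taken next. Among VEGF ligands and receptors, PGF, a placental ligand of the VEGF family, was lower, at 7.50 on the compound 1 array, against 7.82 on the antagomir array. VEGFB was at -0.16, and VEGFC, a lymphatic growth factor, at 0.029. The receptors NRP1, KDR and NRP2 were at -0.18, 0.11 and 0.083. This list of 6 entering genes had 3 lower and 3 higher (4 and 2 after centring, which turned VEGFC). In it 1 gene, PGF, was lower past the 25% fold, and was within that fold after quantile normalization and cyclic loess. Of background genes as deposited, 57.2% were lower, 41.7% higher and 5.27% lower past that fold. VEGFA, which was chosen with its difference known, had the lowest difference of the VEGF genes measured here, so this order carries no test.

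The relatives of ANGPTL4 that entered were also higher on the compound 1 array. ANGPTL8, which acts with other angiopoietin-like proteins on lipoprotein lipase, was at 7.28 on the compound 1 array, against 6.86 on the antagomir array, with 99.2% of genes of like level below its difference of 0.42. ANGPTL6 was at 6.65 and 6.36 on the compound 1 and antagomir arrays, a difference of 0.29. The lipase anchor GPIHBP1 was at 0.044. The nuclear receptors PPARA, PPARG and PPARD were at 0.077, -0.038 and -0.065, and the negative values of PPARG and PPARD became positive after quantile normalization (that of PPARD after cyclic loess too). Of the 6 entering genes of this list 4 were higher and 2 lower, and 1 was higher past the 25% fold. Of background genes 41.7% were higher, 57.2% lower and 3.56% higher past that fold.

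INSIG1, the close relative of INSIG2 and a target of the SREBP factors, was at 8.77 on the compound 1 array, against 9.29 on the antagomir array. Its difference of -0.52 was larger in size than that of any of the 10 HIF targets, and 0 of 500 genes of like level lay below it. SREBF1, which encodes an SREBP factor, was at -0.27, SCAP at -0.11 and SREBF2 at -0.059, and SREBF2 turned to 0.019 after quantile normalization. All 4 entering genes of this list were lower as deposited, 1 of them past the 25% fold. Of background genes 57.2% were lower, and 5.27% were lower past that fold. After quantile normalization 3 of the list were lower and 1 higher, where 48.9% of background genes were lower.

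For ERO1A, the paralog ERO1B was at 6.19 on the compound 1 array, against 6.41 on the antagomir array, and the peroxiredoxin PRDX4, which also feeds disulfide formation, was at 6.29 and 6.68 on the compound 1 and antagomir arrays. Both were lower, PRDX4 past the 25% fold, where 57.2% of background genes were lower and 5.27% lower past that fold. P4HB, PDIA3, PDIA4 and PDIA6 were not analysed here. For CA12, the 4 entering carbonic anhydrases were CA11 (-0.16), CA4 (-0.074), CA13 (-0.021) and CA8 (0.27), with 0 past the 25% fold. Of background genes 57.2% were lower and 41.7% higher, and past that fold 5.27% were lower and 3.56% higher. CA8 entered through its level on the compound 1 array alone (5.71, against 5.44 on the antagomir array), so the filter bears on its direction. CA13 turned to 0.014 after quantile normalization. CA9, a hypoxia marker in tumours, was not analysed here.

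For LOXL2, all 4 relatives were lower as deposited, where 57.2% of background genes were lower. After quantile normalization and cyclic loess 2 were lower and 2 higher, where 48.9% and 51.1% of background genes were lower. LOXL4 was at 10.38 on the compound 1 array, against 10.72 on the antagomir array, a difference of -0.34 that exceeded that of LOXL2, and 2.80% of genes of like level lay below it. LOXL3 was at -0.19. LOX, the family member best known as a HIF target, was at -0.013 and LOXL1 at -0.044, and both turned positive after quantile normalization and cyclic loess.

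For BNIP3, the nearest relative BNIP3L, named here for its likeness and not for its value, was at 11.96 on the compound 1 array, against 12.03 on the antagomir array. Of its 500 genes of like level, 250 had a lower difference than its -0.071. Of 10 entering genes of mitophagy and partners of BNIP3, 8 were lower and 2 higher, with a median of -0.085, where 57.2% of background genes were lower. After quantile normalization and cyclic loess the split was 7 and 3, where 48.9% and 51.1% of background genes were lower. RHEB is the GTPase that activates mTOR complex 1 and a binding partner of BNIP3. Its level was 6.49 on the compound 1 array, against 6.97 on the antagomir array. RHEB was the 1 gene past the 25% fold, where 5.27% of background genes were lower and 3.56% higher past that fold. BNIP1 was at -0.27 and the autophagosome protein gene MAP1LC3B at -0.26. At the other end GABARAPL1, a related autophagosome gene, was at 0.16, the mitophagy receptor gene FUNDC1 at 0.077 and the survival factor gene BCL2L1 at -0.025, which turned positive after quantile normalization and cyclic loess.

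For KDM3A, 15 other JmjC histone demethylases entered, 11 lower and 4 higher, with 0 past the 25% fold and a median of -0.13. Of background genes 57.2% were lower, and past that fold 5.27% were lower and 3.56% higher. The split was 10 and 5 after quantile normalization and cyclic loess, with medians of -0.061 and -0.069, where 48.9% and 51.1% of background genes were lower. The paralog KDM3B, named for its likeness to KDM3A, was at 9.36 on the compound 1 array, against 9.58 on the antagomir array. The lowest were KDM4C (-0.28), KDM5A (-0.26) and KDM5C (-0.24), and the highest KDM4D (0.16), KDM6A (0.13) and KDM2A (0.035). KDM3A, which was chosen with its difference known, had a lower difference than each of the 15 genes, so this order carries no test. TMEM45B, the paralog of TMEM45A, was higher, at 7.41 on the compound 1 array, against 7.15 on the antagomir array, so the pair lay on opposite sides of 0 under each of the 3 scalings.

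**Figure D5:**
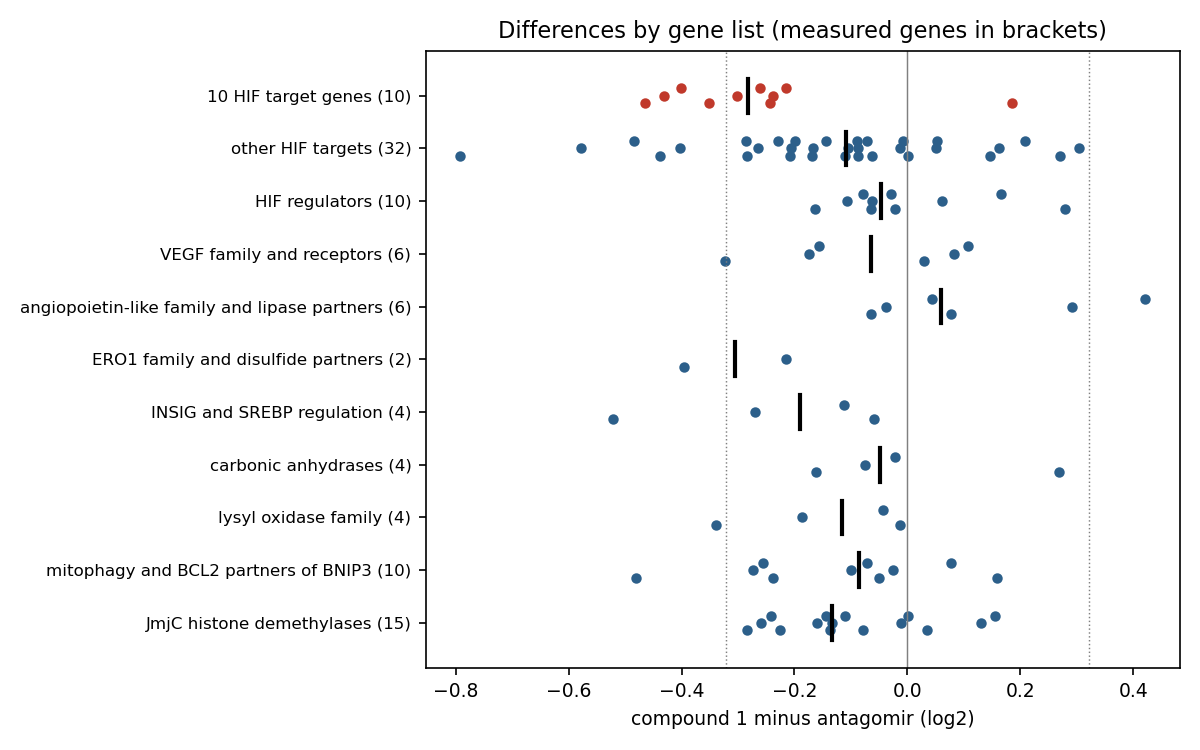
Difference between the arrays (compound 1 minus antagomir, log2) of each entering gene in the 10 HIF targets (red) and 10 other lists (blue), with the list median (black bar), 0 (solid line) and the 25% fold either way (dotted lines). The 10 targets have a median of -0.28, the other 32 HIF targets -0.11 and the HIF regulators -0.046.

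The nearest named genes on either side of each member on its chromosome were looked up in RefSeq order, 20 in all, of which 16 entered. Of these, 11 were lower and 5 higher on the compound 1 array, with a median of -0.12, and 1 was lower past the 25% fold, where 57.2% of background genes were lower and 5.27% lower past that fold. That was LRP2BP, which overlaps ANKRD37 in RefSeq and was at 5.83 on the compound 1 array, against 6.20 on the antagomir array. UFSP2, which also overlaps ANKRD37, was at -0.17. Beside VEGFA, the mitochondrial ribosomal protein gene MRPS18A was at -0.13 and LINC01512 at 0.013. Beside ERO1A, GPR137C was at 0.061 and STYX at -0.15, and beside KDM3A, RNF103 was at -0.23. R3HCC1 and the antisense gene LOXL2-AS1 beside LOXL2 were at -0.17 and -0.10, USP3 and APH1B beside CA12 at -0.22 and -0.068, and CCDC93 beside INSIG2 at -0.13. JAKMIP3 and LINC01164 beside BNIP3 were at 0.24 and 0.043, LNP1 beside TMEM45A at -0.082 and KANK3 beside ANGPTL4 at 0.039. REEP1, EN1, ADGRG7 and RAB11B-AS1 were under the entry level. Each of the 9 lower members had a lower difference than its entering neighbours, except ANKRD37. Beside KDM3A, INSIG2 and TMEM45A only RNF103, CCDC93 and LNP1 entered. The members were chosen with their differences known, so this order describes the choice and cannot test it.

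Over all background genes the difference was also laid out by the number of cores in the first listed promoter window, for 8356 genes with a window. The median difference was -0.029 for 3228 genes with 0 cores, -0.052 for 2760 genes with 1, -0.055 for 1440 genes with 2 and -0.064 for 928 genes with 3 or more. The median level moved with it, at 7.29, 7.61, 7.84 and 7.95 in the same order, and its part in the result was not tested. With ACGTG alone the medians were -0.038 for 6203 genes with 0, -0.060 for 1767 with 1, -0.066 for 328 with 2 and -0.057 for 58 with 3 or more. Within the 8 members, BNIP3 with 5 cores was at -0.24 and TMEM45A with none at -0.43, so the gene with the most cores was not the lowest.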

How the data were processed

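For 53617 transcript clusters, the deposited table gives a value from each array. Its range places it as log2 signal, and the deposited log2 values were used without further scaling in the main setting. The sources used here do not state the log base, background correction, summarisation or normalization, and folds assume base 2. Per the labels' protocols, 5 µg of total RNA went into biotinylated cRNA. The series title names another array type than the platform of the probe table. A single gene symbol was given to 16098 clusters, several to 0, and 37519 are without a name here. RefSeq's table for GRCh38.p14 held all 14884 gene identifiers. The array's own build is not given, so positions of RefSeq serve gene order and printed sequences only.

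The members and lists were chosen with earlier results of these data known. A gene was represented by its cluster with the highest mean, and each member has 1 cluster. Differences are compound 1 minus antagomir. The rule for named genes took all members, the 3 lowest and 3 highest entering genes of each other list (all where 6 or fewer entered), the nearest neighbours, and the markers of the cell line by list; ANKZF1, GYS1, BNIP3L, KDM3B and the markers of other cells under the entry level (ESR1, PGR, CD14, PECAM1) fall outside it. With 2 arrays a gene has 1 difference, so no likeness of patterns was computed. Alternatives were 3 scalings between the arrays (centring, quantile, cyclic loess), other filters, windows of 200 or 1000 genes, all clusters as comparison, the mean over clusters, and protein-coding genes as comparison. The number of arrays limits the precision. Analyses used R 4.3.3 with limma 3.58.1 for the scalings, and Python 3.11.15 otherwise (pandas 2.3.3, numpy 2.4.6; figures by matplotlib 3.10.9).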

Additional observations from a re-analysis of the deposited data

How the results depend on the processing

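The comparison with protein-coding genes was added after seeing the data. The 10 members kept their direction under the 3 scalings, with 9 lower in each, and their median ranged from -0.31 after centring to -0.23 after quantile normalization. VEGFA had 0.50% to 1.20% of like-level genes below it over all settings, KDM3A 1.40% to 3.20%, ERO1A 0.00% to 1.80% and TMEM45A 2.00% to 5.60%. ANKRD37 had 21.4% below it where entry was set at the 75th percentile. The number of members with no more than 10% below them was 8, or 7 after quantile normalization and with 1000 genes, and 6 against all clusters. The filters, windows, comparison sets and mean over clusters could not change a member's difference (each has 1 cluster), only its position among other genes.

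The share of background genes that were lower was 64.6% after centring, 48.9% after quantile normalization, 51.1% after cyclic loess, 51.5% with no filter and 67.1% where entry was at the 75th percentile. Of those past the 25% fold, 574 were lower and 388 higher as deposited (59.7% lower), and 780 and 307 after centring (71.8% lower), 457 and 426 after quantile normalization (51.8% lower) and 522 and 361 after cyclic loess (59.1% lower). Where entry was at the 75th percentile they were 328 and 80, and with no filter 859 and 1050, more higher than lower. List medians moved by more than 0.05 after quantile normalization and cyclic loess for the other HIF targets (-0.043 and -0.037), the VEGF list (0.0042 and -0.00067), the INSIG list (-0.13 and -0.14) and the JmjC list (-0.061 and -0.069). Where entry was at the 75th percentile the VEGF list was at -0.17 and the lysyl oxidase list at -0.044, and with no filter the carbonic anhydrases were at 0.034. The cause was not tested. No paired analysis was possible because there is only 1 array for each treatment. Background correction could not be varied on processed values.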
